A study of Mus musculus with 9 samples.

Results

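Expression of the proteasome genes was examined in CD4+CD25+ cells, the surface type of regulatory T (Treg) cells, from mice with floxed CBP or p300, a pair of related acetyltransferases, and Cre under Foxp3. The genes were all those of the array whose symbol is Psm, a letter from a to g and a number, read through probe sets that carry a single gene symbol. Of 12393 genes measured, 48 matched, through 85 probe sets, and each gene was read by its probe set with the highest mean over the 9 arrays. They comprised 14 genes of the constitutive core particle, 17 of the regulatory particle, 4 of the 5 genes grouped as the immunoproteasome (Psmb8, Psmb9, Psmb10 and Psme1), and 13 others. Psme2, the fifth, was left out because its probe set also carries the symbol Psme2b. Among the 13 others, Psmc3ip, a recombination factor, and Psme3ip1, a partner of the PA28 gamma activator, match by name and are not proteasome subunits. The remaining 46 are called proteasome genes here. Psmb11, the catalytic subunit of the thymus, was not analysed.

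CD4+CD25+ cells were separated with magnets from C57Bl/6 mice, and 3 arrays were run for each of 3 genotypes: fl-CBP/Foxp3cre, fl-p300/Foxp3cre and a Foxp3cre control, which the sample names also call wild type. Cre in the knockouts is driven from Foxp3, so deletion is directed to Foxp3-expressing cells, and the purity of the separated cells is not given in the sources used here. Each array is stated to be an independent sample. The ages of the mice are not given. The groups are called CBP-deleted, p300-deleted and control after these genotype labels.

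The proteasome is the barrel-shaped protease that degrades proteins tagged with ubiquitin. Its core particle stacks rings of alpha subunits, which gate the channel, and beta subunits, of which Psmb5, Psmb6 and Psmb7 carry the catalytic sites. The regulatory particle caps the barrel and contains the ATPases Psmc1 to Psmc6, which unfold substrates, and the Psmd subunits, which form the base and lid and bind or remove ubiquitin. In lymphocytes and in cells exposed to interferon gamma, Psmb8, Psmb9 and Psmb10 replace the constitutive catalytic subunits, and Psme1 and Psme2 form the PA28 activator. This immunoproteasome supplies many of the peptides shown on MHC class I. NRF1, encoded by Nfe2l1, is the best known transcription factor of the constitutive subunits and binds antioxidant-type elements.

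The promoters of 4 genes are shown because they stand for the kinds of gene the results turn on. Psma5 and Psmd12 were higher in CBP-deleted than in control cells, Psmb5 was higher in CBP-deleted than in p300-deleted cells, and Psmb8 is an inducible subunit. Each sequence is the 250 bases before the start of the gene in RefSeq (GRCm38.p6), at chr3:108256676-108256925 (plus strand) for Psma5, chr11:107479278-107479527 (plus) for Psmd12, chr14:54617996-54618245 (minus) for Psmb5 and chr17:34197945-34198194 (plus) for Psmb8. Capitals mark matches to any of the motifs searched.
Psma5: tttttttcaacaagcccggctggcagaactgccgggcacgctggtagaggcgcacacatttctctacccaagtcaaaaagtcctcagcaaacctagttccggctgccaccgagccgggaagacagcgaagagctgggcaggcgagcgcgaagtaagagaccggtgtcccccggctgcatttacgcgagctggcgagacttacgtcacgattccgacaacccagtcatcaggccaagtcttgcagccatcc
Psmd12: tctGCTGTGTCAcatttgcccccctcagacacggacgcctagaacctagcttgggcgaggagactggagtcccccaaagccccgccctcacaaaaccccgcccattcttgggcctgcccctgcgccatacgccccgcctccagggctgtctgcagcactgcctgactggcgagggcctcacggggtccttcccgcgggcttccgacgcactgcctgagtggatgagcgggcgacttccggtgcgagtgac
Psmb5: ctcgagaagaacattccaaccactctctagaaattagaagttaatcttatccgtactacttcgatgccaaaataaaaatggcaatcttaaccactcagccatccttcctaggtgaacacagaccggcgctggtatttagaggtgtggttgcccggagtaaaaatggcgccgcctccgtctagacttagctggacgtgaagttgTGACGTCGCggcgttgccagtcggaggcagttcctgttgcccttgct
Psmb8: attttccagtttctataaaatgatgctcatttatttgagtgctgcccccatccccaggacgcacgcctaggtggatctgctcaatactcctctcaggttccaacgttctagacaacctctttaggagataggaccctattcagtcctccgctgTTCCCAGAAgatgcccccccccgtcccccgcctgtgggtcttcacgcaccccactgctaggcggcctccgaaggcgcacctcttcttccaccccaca
Psmd12 and Psmb5 hold an antioxidant-type element (TGACNNNGC on either strand), 247 and 47 bases before the start, and Psmb8 holds a gamma-activated site of the STAT factors (TTCNNNGAA) 97 bases before it. Psma5 matched none of the motifs searched. Promoters of 38 of the 46 proteasome genes were found in the RefSeq table. The antioxidant-type element was present in 5 of these 38 (Psmb5, Psmb6, Psmc6, Psmd9 and Psmd12), which is 13.2%, against 11.5% of the 27025 genes in the table. The gamma-activated site was present in 2 of 38 (Psmb8 and Psmg1, 5.26%, against 8.13% of genes). The interferon-stimulated response element was present in 3 of 38 (Psmb3, Psmd4 and Psmd9, 7.89%, against 3.46%), and in 0 of the 4 immunoproteasome genes. The CCAAT box was present in 13 of 38 (34.2%, against 37.5%), and the cyclic AMP response element TGACGTCA and the E2F element TTTCGCGC in 0 of 38 (1.77% and 0.3% of genes). Both strands were searched, and a match describes the letters only.

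The 9 arrays had medians between 5.49 and 5.59 on the log2 scale of the deposited values, and arrays of a group correlated at 0.990 to 0.997. The number of arrays limits the precision. Crebbp, the gene of CBP, read 7.20 ± 0.13 with CBP deleted, 7.56 ± 0.10 with p300 deleted and 7.53 ± 0.16 in controls (SD, n = 3), and its difference of -0.33 from controls did not pass (adjusted p = 0.123). Whether its probe set lies in the deleted part is not given, and p300 itself was not analysed here. Cd3e, a marker of T cells in general, and Cd4 were measured in all groups, at log2 11.44 to 11.65 and 9.27 to 9.93 as group means. Foxp3 read 9.60 in controls, 2.87 with CBP deleted and 2.95 with p300 deleted, so this defining Treg marker was near the bottom of the scale in both knockouts, and the cause was not tested. Probe sets of 18S ribosomal RNA read 5.82 and 6.20 in control replicates 1 and 2 against 8.88 in control replicate 3 and 7.39 to 9.62 in the 6 knockout arrays. In bulk samples fewer cells of a type and less RNA per cell cannot be told apart.

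CBP-deleted cells were compared with controls to find which of these genes differed between the groups. Of the 14 genes of the constitutive core 4 rose, 3 of them in the alpha ring: Psma4, Psma5 and Psma6 rose 1.46-fold, 1.36-fold and 1.43-fold. Of the 46 proteasome genes 6 rose and 0 fell (limma, adjusted over all genes). That is 13.0% of them, against 4.93% of all genes that changed, 2.14% of all genes that rose and 2.79% that fell. The log2 fold change was positive for 36 of 46 (78.3%, against 43.4% of all genes), with a median of 0.15 where the median of all genes was -0.03. The CBP-deleted arrays lay above every control array for 17 of 46 genes (37.0%, against 10% of all genes) and below for 0 (against 14.5%; 24.4% of all genes were separate either way). An unadjusted p under 0.05 was found for 16 of 46, a larger share than the 20.4% of all genes.

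**Figure D1:**
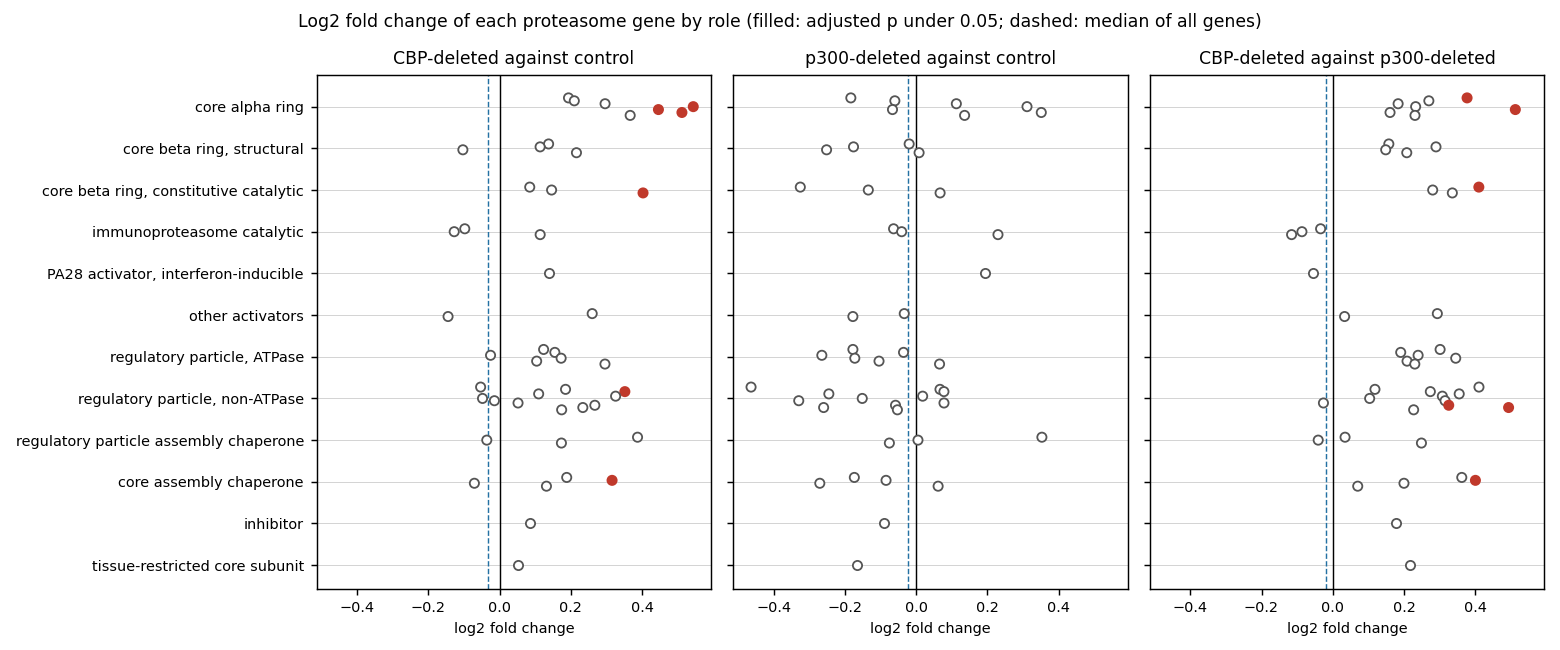
Log2 fold change of each of the 46 proteasome genes (points) by role (rows) in the 3 comparisons (panels), with filled points for an adjusted p under 0.05, a solid line at 0 and a dashed line at the median of all genes. The alpha ring lies to the right of 0 in the left and right panels, and the 4 immunoproteasome genes lie between -0.12 and -0.03 in the right panel.

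In the alpha ring all 7 genes had positive values, from 0.19 to 0.54. Psma4 read 11.02, 10.99 and 10.97 in the CBP-deleted arrays and 10.29, 10.30 and 10.75 in the controls, replicates in order. The CBP-deleted arrays were close together and above all controls, of which replicate 3 was the highest (log2 fold change 0.54, SE 0.11, adjusted p = 0.0203). Psma5 read 10.17, 10.18 and 10.40 against 9.69, 9.89 and 9.84. Here too the groups did not overlap, with CBP-deleted replicate 3 the highest (0.45, SE 0.10, adjusted p = 0.0336). Psma6 read 10.83, 10.88 and 11.14 against 10.19, 10.49 and 10.63, again without overlap, and control replicate 1 was the lowest array (0.51, SE 0.13, adjusted p = 0.0416). Psma7 was 0.37 higher (adjusted p = 0.0994), Psma3 0.30 (0.0834), Psma2 0.21 (0.242) and Psma1 0.19 (0.268), and these did not pass.

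Of the beta ring only Psmb7, the subunit with trypsin-like activity, passed. It read 10.53, 10.65 and 10.69 in CBP-deleted arrays and 10.05, 10.34 and 10.27 in controls, and the groups were separate, with control replicate 1 the lowest (1.32-fold, log2 0.40, SE 0.09, adjusted p = 0.0277). The other constitutive catalytic subunits, Psmb5 (chymotrypsin-like) and Psmb6 (caspase-like), differed by 0.08 and 0.15 (adjusted p = 0.676 and 0.509). The structural subunits Psmb1 to Psmb4 ranged from -0.10 for Psmb3 to 0.22 for Psmb4. Psmg2, a chaperone that pairs with Psmg1 to assemble the alpha ring, read 9.02, 8.92 and 9.02 against 8.74, 8.61 and 8.66, and the groups were separate (0.32, SE 0.08, adjusted p = 0.0443). Psmg1 was 0.19 higher and Psmg3 0.07 lower, and neither passed (adjusted p = 0.402 and 0.833).

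In the regulatory particle 1 of 17 genes rose and 0 fell. Psmd12, a scaffold subunit of the lid, read 9.40, 9.32 and 9.44 in CBP-deleted arrays against 9.07, 8.90 and 9.14 in controls, without overlap (0.35, SE 0.09, adjusted p = 0.0452). Psmd14, the deubiquitinase of the lid, was 0.33 higher (adjusted p = 0.0729) and Psmd6, another lid subunit, 0.27 (0.0805). The 6 ATPases ranged from -0.03 for Psmc3 to 0.30 for Psmc6, and 0 passed. Psmd1 and Psmd2, the large scaffolds of the base, and Psmd3 differed by -0.05, -0.05 and -0.01. The median of the regulatory particle was 0.16 and that of the core 0.21.

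The 6 calls depended on single arrays, and the share of all genes that passed in these fits is not given here. Without CBP-deleted replicate 1, 2 or 3, or without control replicate 1, 0 of the 46 genes passed, and with only the arrays of CBP-deleted and control cells in the fit 0 passed. Without p300-deleted replicate 1 or 2, 3 passed in each case, and the replicate number as a block left 2. With the 18S level as a covariate 1 remained, Psma4 (0.45, adjusted p = 0.0191, range over 19 alternatives 0.000347 to 0.0803).

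**Figure D2:**
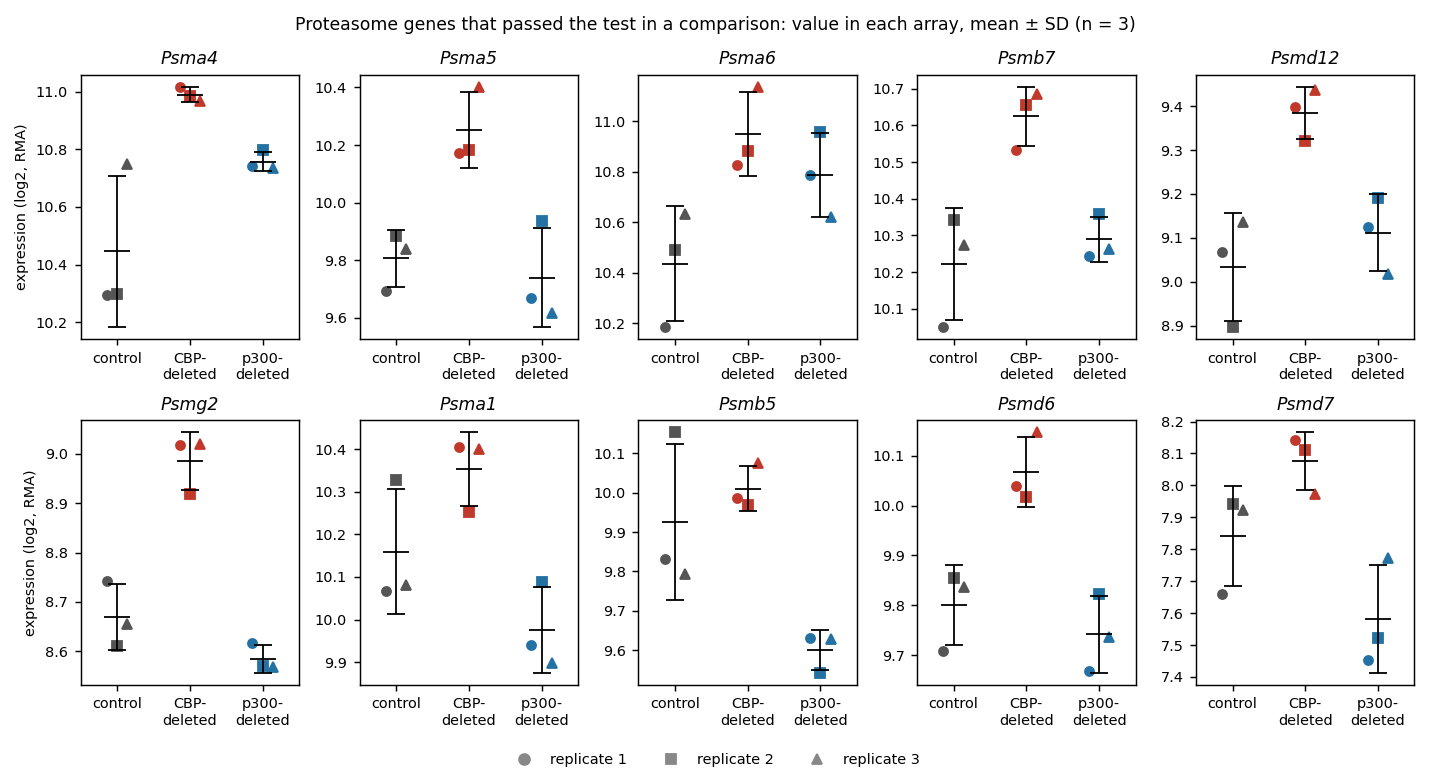
Deposited log2 value of each array (points, shaped by replicate number) with the group mean and SD (n = 3) for the 10 proteasome genes that passed in at least 1 comparison; each panel has its own scale. The CBP-deleted arrays lie above all p300-deleted arrays in every panel except Psma6, where p300-deleted replicate 2 reaches 10.96.

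CBP-deleted and p300-deleted cells were compared directly, to see where levels differed between the knockouts. In CBP-deleted cells 3 of 14 core genes and 2 of 17 regulatory particle genes were higher, with the largest differences in Psma5 (1.43-fold) and the lid subunit Psmd7 (1.41-fold). Of the 4 immunoproteasome genes 0 passed, and the difference between these sets was not tested. Of the 46 genes 6 were higher and 0 lower (13.0% higher, against 3.2% of all genes higher, 2.01% lower and 5.2% either). The difference was positive for 40 of 46 (87.0%, against 45.9% of all genes), with a median of 0.23 where all genes had -0.02. For 30 of 46 genes (65.2%, against 15.8% of all genes) every CBP-deleted array lay above every p300-deleted array, and for 2, Psmb8 and Psmb9, every one lay below (4.35%, against 14.4%; 30.1% of all genes were separate either way). An unadjusted p under 0.05 was found for 25 of 46, a larger share than the 18.3% of all genes.

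All 14 core genes had positive differences, from 0.15 for Psmb3 to 0.51 for Psma5. Psma5 read 10.17, 10.18 and 10.40 in CBP-deleted and 9.67, 9.94 and 9.62 in p300-deleted arrays (0.51, SE 0.10, adjusted p = 0.0144). Psma1, another alpha ring subunit, read 10.40, 10.25 and 10.40 against 9.94, 10.09 and 9.90 (0.38, SE 0.09, adjusted p = 0.0371). In both genes the groups were separate, and p300-deleted replicate 2 was the closest to the CBP-deleted arrays. Psmb5 read 9.99, 9.97 and 10.08 against 9.63, 9.54 and 9.63, with a narrow spread in both groups (0.41, SE 0.10, adjusted p = 0.0314). Psmb7 differed by 0.34 and just missed the threshold (adjusted p = 0.0506), and Psmb6 differed by 0.28 (0.202).

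In the regulatory particle 16 of 17 genes were positive and 2 passed. Psmd7, a lid subunit that pairs with the deubiquitinase Psmd14, read 8.14, 8.11 and 7.97 in CBP-deleted arrays against 7.45, 7.52 and 7.77 (0.49, SE 0.12, adjusted p = 0.0296). Psmd6 read 10.04, 10.02 and 10.15 against 9.67, 9.82 and 9.74 (0.33, SE 0.08, adjusted p = 0.0360). The arrays of both genes were separate between the knockouts, and p300-deleted replicate 3 was the highest of its group for Psmd7. All 6 ATPases were positive, from 0.19 for Psmc2 to 0.35 for Psmc4, and 0 passed. Psmd4, a ubiquitin receptor, was the exception in sign, at -0.03. The core assembly chaperone Psmg2 read 9.02, 8.92 and 9.02 against 8.62, 8.57 and 8.57, well separated (0.40, SE 0.08, adjusted p = 0.0136).

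Psmg2 and Psma5 were the 2 genes that passed both in this comparison and in CBP-deleted against control cells; the 2 comparisons share the CBP-deleted arrays. The count of 6 moved with the arrays and the fit. It was 0 without CBP-deleted replicate 2 or 3, 1 without CBP-deleted replicate 1 or p300-deleted replicate 1 or 2, and 3 without p300-deleted replicate 3. It was 19 without control replicate 2 and 13 without control replicate 3, which enter only through the shared estimate of the spread. With only the arrays of the knockouts in the fit 22 genes were higher and 0 lower. The share of all genes that passed in these fits is not given here.

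p300-deleted cells were compared with the same controls. No proteasome gene passed: of 46, 0 rose and 0 fell with limma (against 2.02% and 2.04% of all genes, 4.06% either way). An unadjusted p under 0.05 was found for 13 of 46, a larger share than the 18.6% of all genes. The median was -0.06, where all genes had -0.02, and 16 of 46 were positive (34.8%, against 44.9%). The p300-deleted arrays lay above all controls for 2 genes, Psmb9 and Psme1 of the immunoproteasome (4.35%, against 8.76% of all genes). They lay below all controls for 6 (13.0%, against 11.5%), and 20.3% of all genes were separate either way. Over the 46 genes these shares were near those of all genes or under them.

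The largest value below 0 was that of Psmd1, the largest base subunit, which read 8.38, 8.30 and 8.83 in p300-deleted and 8.80, 9.05 and 9.05 in control arrays (-0.46, SE 0.14, adjusted p = 0.0989). Its groups overlapped through p300-deleted replicate 3. Psmd3 was -0.33 (adjusted p = 0.0584) and Psmb5 -0.33 (0.0899), both with separate groups. The largest values above 0 were those of Psmd10, the assembly chaperone gankyrin (0.35, adjusted p = 0.223), Psma6 (0.35, 0.153) and Psma4 (0.31, 0.141). The core had a median of -0.04 and the regulatory particle of -0.10. Over the alternatives the count reached 4 (1 higher and 3 lower, without control replicate 3), and it was 3 (2 higher and 1 lower) with array weights. How many of all genes passed in these fits is not given here. The order CBP-deleted over control over p300-deleted held for the group means of 21 of 46 genes (45.7%, against 15.5% of all genes): 7 of 14 in the core, 8 of 17 in the regulatory particle and 0 of 4 in the immunoproteasome.

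The immunoproteasome was compared with the subunits it replaces. Its 4 measured genes did not pass in any comparison, and their values stayed within 0.23 of 0 on the log2 scale. Psmb8, the inducible counterpart of Psmb5, read 11.45, 11.44 and 11.42 in CBP-deleted, 11.54, 11.46 and 11.57 in p300-deleted and 11.59, 11.72 and 11.38 in control arrays. The controls spanned both knockouts, and CBP-deleted cells differed from controls by -0.13 (95% confidence interval -0.31 to 0.06). Psmb9, the counterpart of Psmb6, read 10.79, 10.89 and 10.85, then 11.03, 10.94 and 10.91, and in controls 10.75, 10.90 and 10.55. The p300-deleted arrays were above the others, by 0.23 over controls (adjusted p = 0.182, unadjusted interval 0.04 to 0.42). Psmb10, the counterpart of Psmb7, read 10.36, 10.30 and 10.39, then 10.34, 10.36 and 10.45, and in controls 10.45, 10.70 and 10.19. The knockouts lay inside the range of the controls (-0.10 and -0.06, intervals -0.34 to 0.14 and -0.30 to 0.18). Psme1, a subunit of the PA28 activator, read 11.64, 11.54 and 11.62, then 11.64, 11.67 and 11.65, and in controls 11.50, 11.56 and 11.32. It was 0.14 higher with CBP deleted and 0.19 higher with p300 deleted (adjusted p = 0.332 and 0.185), and every p300-deleted array lay above every control. Between the knockouts the 4 values ran from -0.12 for Psmb9 to -0.03 for Psmb10, and for Psmb8 the interval was -0.27 to 0.10.

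**Figure D3:**
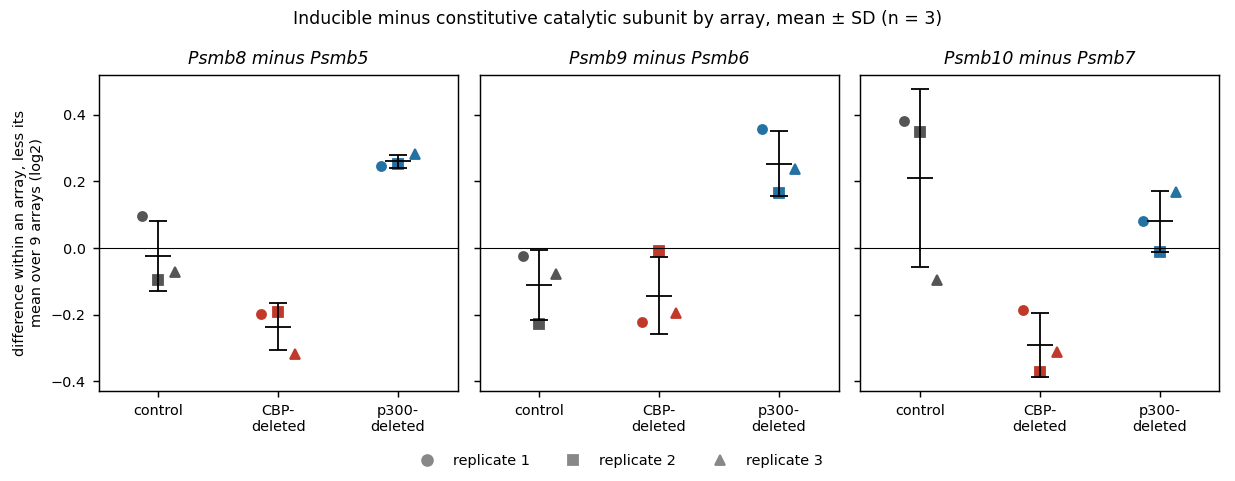
Log2 value of the inducible minus that of the constitutive catalytic subunit in each array, less the mean of that difference over the 9 arrays (points, shaped by replicate number), with group mean and SD (n = 3). The p300-deleted arrays lie above the CBP-deleted arrays for each of the 3 pairs, and control replicate 3 lies apart from the other controls for Psmb10 minus Psmb7.

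Within an array, the difference between an inducible subunit and its counterpart separated the knockouts for all 3 pairs. Relative to its mean over all arrays, Psmb8 minus Psmb5 was -0.20, -0.19 and -0.32 in CBP-deleted and 0.25, 0.25 and 0.28 in p300-deleted arrays, with controls at 0.10, -0.10 and -0.07 between them. The group means of this pair differed by -0.50 between CBP-deleted and p300-deleted cells. Psmb9 minus Psmb6 differed by -0.40 between the knockouts and by 0.36 between p300-deleted and control cells, where all p300-deleted arrays were higher. Psmb10 minus Psmb7 differed by -0.37 between the knockouts and by -0.50 between CBP-deleted and control cells, with a wide spread of the controls (SD 0.27, n = 3). These differences are given as values and were not tested. On their own they do not show which of the paired genes differed. Taken singly between the knockouts, Psmb5, Psmb6 and Psmb7 differed by 0.41, 0.28 and 0.34. Psmb8, Psmb9 and Psmb10 differed by -0.09, -0.12 and -0.03, and of all these only Psmb5 passed.

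Apart from Psmg2, 0 of the remaining proteasome genes passed in any comparison. Psme3, the PA28 gamma activator of the nucleus, was 0.26 higher in CBP-deleted than in control cells (adjusted p = 0.139), and Psme4, the PA200 activator, was -0.14 (0.406). Psmf1, the inhibitor PI31, was 0.09 with CBP deleted and -0.09 with p300 deleted, both against controls. The regulatory particle chaperones Psmd5, Psmd9 and Psmd10 were -0.04, 0.17 and 0.39 in CBP-deleted cells, and 0 passed. Psma8, the testis form of an alpha subunit, read 2.99 to 3.21 as group means, under the log2 5 that served as the limit for dim probe sets. Psmc3ip, which matches by name only, read 6.55, 6.61 and 6.53 in CBP-deleted, 5.63, 6.05 and 5.77 in p300-deleted and 6.21, 6.47 and 6.26 in control arrays. Its 3 groups were separate, and CBP-deleted exceeded p300-deleted cells by 0.75 (SE 0.13, adjusted p = 0.00632), a call kept in all 19 alternatives.

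Of the 46 genes 21 were read by more than 1 probe set. Of 37 probe sets not used above, 28 had the sign of the used one in CBP-deleted against control cells, and 25 in each of the other comparisons. Psma5 and Psma6, which rose, each had a second bright probe set at 0.50 and 0.46 (adjusted p = 0.0589 and 0.0600 over all probe sets, where the probe sets used had 0.0507 and 0.0602). The second probe set of Psmg2 was 0.18 (0.345).

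Other genes of the pathway were examined from lists. Of 14 measured partners and assembly factors of the proteasome, 1 rose in CBP-deleted against control cells and 0 fell, 0 changed in p300-deleted cells, and 3 were higher in CBP-deleted than in p300-deleted cells. Of all genes 2.14% rose in the first comparison and 3.2% were higher in the last. Uchl5, a deubiquitinase bound to the regulatory particle, rose by 0.42 (adjusted p = 0.0245) and was 0.43 higher than in p300-deleted cells (0.0165). Usp14, the other bound deubiquitinase, was 0.41 higher in CBP-deleted than in p300-deleted cells (0.0347) and 0.38 over controls (0.0528). Pomp, the chaperone that completes core assembly, was 0.34 higher than in p300-deleted cells (0.0254). The median of the 14 was 0.06, -0.01 and 0.02 in the 3 comparisons.

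Nfe2l1 and 8 other measured genes of the NRF1 axis did not pass in any comparison, with medians of -0.12, -0.02 and 0.02. Nfe2l1 itself was -0.20 in CBP-deleted against control cells (adjusted p = 0.250) and -0.26 against p300-deleted cells (0.148). Vcp, the segregase that extracts ubiquitinated proteins, was -0.17 (0.427). The ubiquitin genes and their activating enzymes were not analysed here (0 of 6 measured).

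Of 11 measured genes of MHC class I antigen processing, 2 rose in CBP-deleted cells, against 2.14% of all genes. They were Pdia3, an oxidoreductase of the peptide loading complex (0.85, adjusted p = 0.0485), and Erap1, the peptide-trimming peptidase (0.37, 0.0240). The Pdia3 call was kept in 4 of 19 alternatives, with adjusted p from 0.00178 to 0.153, and its control arrays read 10.20, 9.65 and 10.82. Erap1 was also higher than in p300-deleted cells (0.33, 0.0341), and in p300-deleted against control cells 0 of 11 passed. In RefSeq the genes Psmb9, Tap1, Psmb8 and Tap2 follow each other on chromosome 17. Tap1 and Tap2, the peptide transporter subunits, were -0.02 and -0.28 in CBP-deleted cells (adjusted p = 0.936 and 0.101) and 0.02 and -0.07 in p300-deleted cells, and they did not pass. Of 11 measured interferon genes and interferon-response factors, 0 passed against controls in either knockout. Between the knockouts Irf1, an activator of Psmb9 and Tap1, was lower in CBP-deleted cells (-0.48, 0.0344). Ifngr1, a chain of the interferon gamma receptor, was higher by 0.59 (0.0141). Of all genes 2.01% were lower and 3.2% higher in this comparison. Of the 11 genes 10 were negative and only Ifngr1 was positive, where 45.9% of all genes were positive. The median of the 11 was -0.26, where all genes had -0.02.

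Other transcripts moved between the same groups, in a list chosen with earlier results of these data known. Of 19 measured cell cycle genes 17 were higher in CBP-deleted than in p300-deleted cells, against 3.2% of all genes. In p300-deleted against control cells 13 were lower, against 2.04% of all genes. In CBP-deleted against control cells 0 changed, although all 19 were positive, against 43.4% of all genes. The mean level of this list was log2 8.72 to 8.97 over the CBP-deleted arrays, 7.70 to 8.09 over the p300-deleted and 8.28 to 9.04 over the controls. Its part in the differences of the proteasome genes was not tested.

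**Figure D4:**
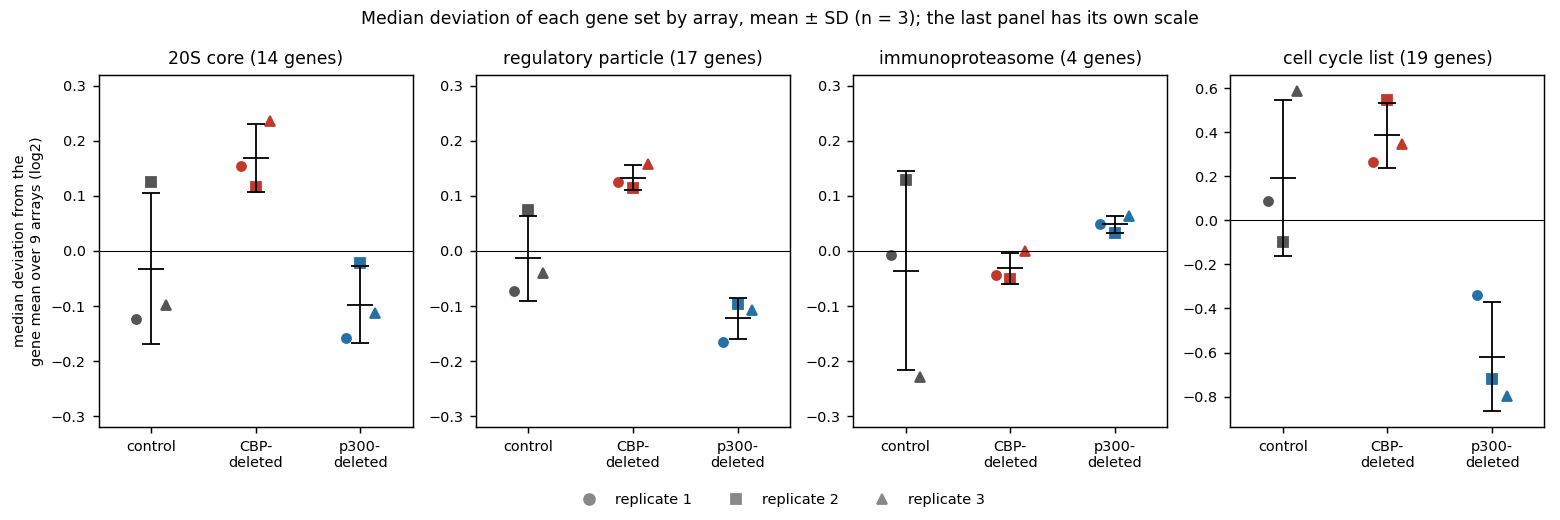
Median over the genes of a set of the deviation from each gene's mean over the 9 arrays (log2), for each array (points, shaped by replicate number) with group mean and SD (n = 3). The CBP-deleted arrays lie at 0.12 to 0.24 for the core and 0.11 to 0.16 for the regulatory particle, the p300-deleted arrays at -0.16 to -0.02 and -0.16 to -0.10.

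The spread of the controls was shared by most proteasome genes. Replicate 2 was the highest control for 35 of the 46 genes, and replicate 3 was the lowest for 23. These ranks were not counted over all genes. The median deviation of all genes from their means was 0.016, 0.045 and -0.012 in control replicates 1, 2 and 3, so replicate 2 was the highest there too. As a median deviation from the gene means, the core stood at -0.12, 0.13 and -0.10 in control replicates 1, 2 and 3, against 0.15, 0.12 and 0.24 in the CBP-deleted and -0.16, -0.02 and -0.11 in the p300-deleted arrays. Control replicate 2 thus lay inside the range of the CBP-deleted arrays for the core. For the regulatory particle the controls stood at -0.07, 0.07 and -0.04, below the CBP-deleted arrays (0.13, 0.11 and 0.16) and above the p300-deleted arrays (-0.16, -0.10 and -0.11). The immunoproteasome stood at -0.01, 0.13 and -0.23 in controls, a range that held all 6 knockout arrays. Without control replicate 2 the core median of p300-deleted against control cells was 0.068 in place of -0.04, and the regulatory particle medians were 0.21 with CBP deleted and -0.049 with p300 deleted.

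Markers of other cell types also differed between the groups, and their part in the proteasome values was not tested. Against controls 2.14% of all genes rose and 2.79% fell with CBP deleted, and 2.02% rose and 2.04% fell with p300 deleted. Of 5 B cell markers 3 fell in CBP-deleted cells (mean level 6.43 to 7.04 over the CBP-deleted arrays, 6.78 to 7.58 over the p300-deleted and 7.40 to 7.63 over the controls), the largest being Cd79a at -1.03 (adjusted p = 0.0272). Of 4 plasma cell markers 3 rose in p300-deleted cells (8.08 to 8.53, against 7.32 to 7.52 in controls and 7.27 to 7.67 in CBP-deleted cells), with Tnfrsf17 at 1.79. All 4 mast cell and basophil markers rose in p300-deleted cells (6.37 to 7.24, against 4.97 to 5.20 in controls and 4.97 to 6.41 in CBP-deleted cells), with Mcpt8 at 2.44. Of 7 neutrophil markers 2 rose in p300-deleted and 0 in CBP-deleted cells (5.70 to 7.78 and 5.53 to 7.48, against 4.43 to 5.23), Camp and Ctsg, at 2.13 and 1.64. Of 5 markers of CD8 T or NK cells, Gzmk and Cd8b1 rose in CBP-deleted cells (1.02 and 0.74) and Ncr1 in p300-deleted cells (1.43), with list means of 5.67 to 6.00, 5.94 to 6.12 and, in controls, 5.51 to 5.60. With CBP deleted 4 of these 5 were positive against controls, and 1 was -0.51. That marker did not pass, although its CBP-deleted arrays all lay below every control. Of 7 dendritic cell and macrophage markers 0 passed, at 7.05 to 8.10, 7.68 to 8.56 and 7.13 to 7.91. Of 10 Treg and CD4 T cell markers 2 rose and 1 fell in CBP-deleted cells (Ctla4, Tnfrsf4 and Foxp3). With p300 deleted Cd4, Cd3g and Izumo1r rose and Foxp3 fell. Between the knockouts 3 plasma cell markers, Cpa3 and Izumo1r were lower where CBP was deleted, as were 2.01% of all genes.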

How the data were processed

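Total RNA (100 ng) was amplified, labelled with biotin and hybridised to Affymetrix 3' arrays, 9 in all. The authors deposited 1 log2 value per probe set and array, summarised with RMA per the submitters' processing notes; its settings are not given in the sources used here. Of 22690 probe sets 64 were controls, 20380 of the rest carry a single gene symbol in the platform annotation, 691 several and 1555 none. The probe set with the highest mean over 9 arrays was kept for each gene, which gave 12393 genes; the RefSeq annotation of GRCm38.p6 changed 0 symbols. No further scaling or filter was applied.

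The test was limma's (version 3.58.1, under R 4.3.3) on group means of all 9 arrays, with 6 residual degrees of freedom, moderation with a trend on mean expression, two-sided, Benjamini-Hochberg adjusted over all genes at 0.05. Arrays are stated to be independent samples. The fit was checked on simulated data. Named were the immunoproteasome and constitutive catalytic genes, every proteasome gene that passed, the extremes of each role, and up to 4 passing genes per list (else 2). Further genes were named with their values in view. The members and lists were chosen with earlier results of these data known. Alternatives were a filter on probe sets under log2 5, other choices of probe set, array medians, array weights, no trend, the replicate number as a block, 18S as a covariate, fits on 2 groups and leaving out each array. With each gene's group mean subtracted, same-numbered arrays of different groups correlated at -0.23 to 0.27, and differently numbered arrays at -0.19 to 0.26. With 3 arrays per group these values cannot decide whether the numbers pair the samples.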

Additional observations from a re-analysis of the deposited data

Results flagged for a closer look

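Among probe sets that the gene comparisons did not use, 3 of proteasome genes passed when every probe set was tested on its own (limma, adjusted over all probe sets). A dimmer probe set of Psmc6, an ATPase of the regulatory particle, rose by 0.67 (SE 0.14, adjusted p = 0.0341) in CBP-deleted against control cells, from log2 4.70 ± 0.11 to 5.37 ± 0.13 (SD, n = 3), where the probe set used was 0.30. A dimmer probe set of Psmd4, a ubiquitin receptor, rose by 0.44 (SE 0.10, adjusted p = 0.0417), from 8.27 ± 0.14 to 8.71 ± 0.09, where the probe set used was 0.05. The same probe set of Psmd4 was 0.41 in p300-deleted against control cells (adjusted p = 0.0543) and 0.035 between the knockouts (0.913). A dimmer probe set of Psme3, the PA28 gamma activator, was 0.49 higher in CBP-deleted than in p300-deleted cells (SE 0.11, adjusted p = 0.0294), at 8.03 ± 0.02 against 7.54 ± 0.14, where the probe set used was 0.29. Groups of 3 arrays are too small for a check of single outlying arrays.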

How the results depend on the processing

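No called value changed sign under any of the 19 alternatives. The count of proteasome genes changed in CBP-deleted against control cells, 6, was 1 without the trend, 1 with the 18S covariate, 2 with the replicate block, 0 with only the 2 groups and 16 with array weights, all higher; leaving out single arrays gave 0 to 8. Between the knockouts the count of 6 was 10 without dim genes, 2 with the mean of all probe sets, 3 without the trend, 21 with array weights and 22 with only the 2 groups, all higher, and 0 to 19 without single arrays; the replicate block gave 4. For p300-deleted against control cells the count of 0 was 1 without dim genes and 3 with array weights, and 0 to 4 without single arrays; the replicate block gave 0. The regulatory particle median of 0.16 in CBP-deleted against control cells was 0.10 with the mean of all probe sets and 0.12 to 0.21 without single arrays. In p300-deleted against control cells the core median of -0.04 was -0.089 to 0.068 and the regulatory particle median of -0.10 was -0.14 to -0.049 without single arrays. The cause of these shifts was not tested. Fits with fewer arrays have fewer degrees of freedom. Whether the proteasome counts moved more than the share of all genes that passed was not tested. Whether same-numbered arrays are paired could not be decided.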
